A study of Mus musculus with 6 samples.

Results

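The expressed lincRNA loci are the long intergenic noncoding RNA genes that had a measurable level in these libraries. They were chosen by 2 entries of the deposited gene table, the biotype lincRNA and a mean FPKM over all 6 libraries of 1 or more. FPKM scales the fragments of a gene by its length and by a total for the library. The rule took 1168 of 5559 lincRNA genes (21.01%), in a table of 54532 genes, and 1550 lincRNA genes had no read in any library. RNA was sequenced from STRA8+ cell suspensions of mouse testis, where STRA8 is a protein that germ cells need to enter meiosis. The 3 control libraries carried the Cre recombinase and the 3 knockout libraries came from a conditional knockout. The deleted gene, the Cre driver and the age and strain of the mice are not stated in the labels, and the study's title names BCAS2, a splicing factor, and hnRNPH1, an RNA-binding protein. The labels name the testis throughout, except an extraction protocol that speaks of retinas, and they leave unsaid if each library is a separate animal, so p-values measure the spread between libraries, which may be technical.

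A lincRNA is transcribed by RNA polymerase II from its own locus between protein-coding genes, and is usually spliced and polyadenylated without a long reading frame. The testis is known for transcribing more such loci than most tissues, mainly in spermatocytes and round spermatids, and the function of most is unknown. A few are well studied, among them Malat1 of nuclear speckles, the imprinted H19 and the hosts of small nucleolar RNAs and microRNAs. Of the 1168 loci, 613 had a Gm name and 460 a Rik name, the names given to predicted genes and to cDNA clones. The median length of their exons was 867.5 bases, from 78 to 16543.

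The promoters of 5 loci are shown because they stand for the 3 patterns in the values. Rbakdn, 1700008K24Rik and 1700026J12Rik were high in controls and lower in the knockout, Snhg18 was higher in the knockout, and Mir9-3hg was not called. The sequences are RefSeq promoter windows of GRCm38.p6 (mm10), 250 bases before and 50 after the start of the gene, written along the strand of the gene. Capitals mark matches to 5 motifs searched on both strands: TGACGTCA (the cAMP response element, CRE), GTTGCCNNG (the start of the RFX X-box), AACNGNC (MYB), CNCCTCAG (STRA8) and TATAAA (the TATA box). The windows lie at chr5:143165702-143166001 (minus strand) for Rbakdn, chr17:49113484-49113783 (minus) for 1700008K24Rik, chr16:49255723-49256022 (minus) for 1700026J12Rik, chr15:32244613-32244912 (minus) for Snhg18 and chr7:79499776-79500075 (plus) for Mir9-3hg.
Rbakdn: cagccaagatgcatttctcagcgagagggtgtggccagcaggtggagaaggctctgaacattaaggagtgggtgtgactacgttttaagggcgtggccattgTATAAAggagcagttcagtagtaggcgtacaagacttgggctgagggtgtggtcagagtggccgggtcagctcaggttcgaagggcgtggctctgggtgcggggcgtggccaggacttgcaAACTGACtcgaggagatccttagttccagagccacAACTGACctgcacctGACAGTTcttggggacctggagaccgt
1700008K24Rik: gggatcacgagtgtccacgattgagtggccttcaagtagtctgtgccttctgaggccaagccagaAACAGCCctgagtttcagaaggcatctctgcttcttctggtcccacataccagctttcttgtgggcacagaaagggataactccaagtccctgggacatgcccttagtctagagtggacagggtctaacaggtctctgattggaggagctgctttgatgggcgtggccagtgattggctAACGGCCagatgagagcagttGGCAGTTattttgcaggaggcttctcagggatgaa
1700026J12Rik: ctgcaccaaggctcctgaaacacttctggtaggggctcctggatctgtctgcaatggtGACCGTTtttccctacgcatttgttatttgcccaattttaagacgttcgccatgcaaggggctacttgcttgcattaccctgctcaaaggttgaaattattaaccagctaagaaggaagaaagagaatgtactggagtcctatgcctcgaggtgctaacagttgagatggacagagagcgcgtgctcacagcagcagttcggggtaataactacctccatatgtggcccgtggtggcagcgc
Snhg18: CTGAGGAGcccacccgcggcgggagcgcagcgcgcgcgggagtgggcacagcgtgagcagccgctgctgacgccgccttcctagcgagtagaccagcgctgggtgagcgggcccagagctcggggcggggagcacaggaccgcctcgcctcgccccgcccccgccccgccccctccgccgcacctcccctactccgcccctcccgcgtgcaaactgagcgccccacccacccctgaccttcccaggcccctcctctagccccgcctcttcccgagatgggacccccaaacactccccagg
Mir9-3hg: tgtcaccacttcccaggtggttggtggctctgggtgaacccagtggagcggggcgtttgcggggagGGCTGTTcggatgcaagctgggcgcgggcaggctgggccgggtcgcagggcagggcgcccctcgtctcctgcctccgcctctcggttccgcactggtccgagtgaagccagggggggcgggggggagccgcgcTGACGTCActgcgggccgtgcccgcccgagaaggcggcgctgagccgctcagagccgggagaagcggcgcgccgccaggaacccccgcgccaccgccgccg

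The shown windows differed in base composition and in motif matches. The Rbakdn window had 3 MYB matches and 1 TATA box match, the last at base -148 from the start site, and 56.7% G and C. The 1700008K24Rik window also had 3 MYB matches, 1 of them at base -6, and the 1700026J12Rik window had 1. Snhg18 had 1 STRA8 match, at the first base of the window, and Mir9-3hg 1 CRE match at base -51 and 1 MYB match. A match says only that these letters occur in the window.

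A RefSeq promoter window lay within 500 bases of the deposited gene start for 519 of the 1168 loci. A CpG ratio (CpG pairs observed over those expected from the C and G content) of at least 0.6 was found in 19.3% of these 519 windows, against 35.8% of the 32851 windows in the table. It was found in 77 of the 482 windows of loci lower in the knockout (16.0%), in 14 of the 24 windows of loci higher in the knockout (58.3%) and in 9 of 13 windows of loci that were not called. Of protein-coding genes it was found in 64.5% of the windows of those lower in the knockout and 78.8% of those higher. MYB letters were in 39.1% of the members' windows and 32.8% of all windows. The X-box start was in 8.86% and 5.004%, the CRE in 3.08% and 1.79%, the TATA box in 15.2% and 13.6%, and STRA8 letters in 7.71% and 7.94%. Of the loci lower in the knockout, 40.5% had MYB letters, 9.34% the X-box start and 2.905% the CRE. Of protein-coding genes lower in the knockout, 38.3%, 9.16% and 3.49% had them. These shares are descriptions of windows, with no test.

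The comparison of the design asks which lincRNA loci changed in level between knockout and control. Most were lower in the knockout. Of the 1168 loci, 1040 fell (89.0%), where 50.4% of all 16791 genes tested fell, and 80 rose (6.85%), where 36.2% of all genes tested rose. The other 48 were not called, and 86.6% of all genes tested were called in either direction. A call is an adjusted p of at most 0.05 from limma on log2(FPKM + 0.5), with Benjamini-Hochberg adjustment over all genes tested. The 3 libraries of a group lay wholly to 1 side of the other group for 1121 loci, 1039 below and 82 above, where 88.0% of all genes tested were separated in either direction. At a log2 fold change of at least 1 in size, 1024 loci were lower and 59 higher, where 41.1% and 23.3% of all genes tested were.

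The median log2 fold change, knockout minus control, was -3.24 over the lincRNA loci and -0.41 over all genes tested. It was -0.04 over 12721 protein-coding genes, -0.78 over 920 processed pseudogenes and -2.72 over 719 antisense RNA genes. Antisense RNA genes fell in 586 cases and rose in 77. The size depends on the value added before the logarithm, since 482 of the loci had no read in the knockout libraries. As a log2 ratio of scaled reads, with any group total below 3 reads, as in those 482, set to 3, the median was -5.84. The direction of the calls also depends on how libraries are scaled. Rescaling FPKM to the same sum moved the median of all genes tested from -0.41 to 0.71, quantile normalization moved it to 0.53, and rescaled reads moved it to 0.42. Over the lincRNA loci the medians were then -3.89, -2.17 and -2.76. All 80 loci higher in the knockout were called higher under each of 5 scalings, and 941 of the 1040 were called lower under each. Over all genes tested, 6074 of the 6075 higher and 5746 of the 8462 lower kept their call in this way. Of the 1040, 11 turned to called higher under at least 1 of them.

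**Figure D1:**
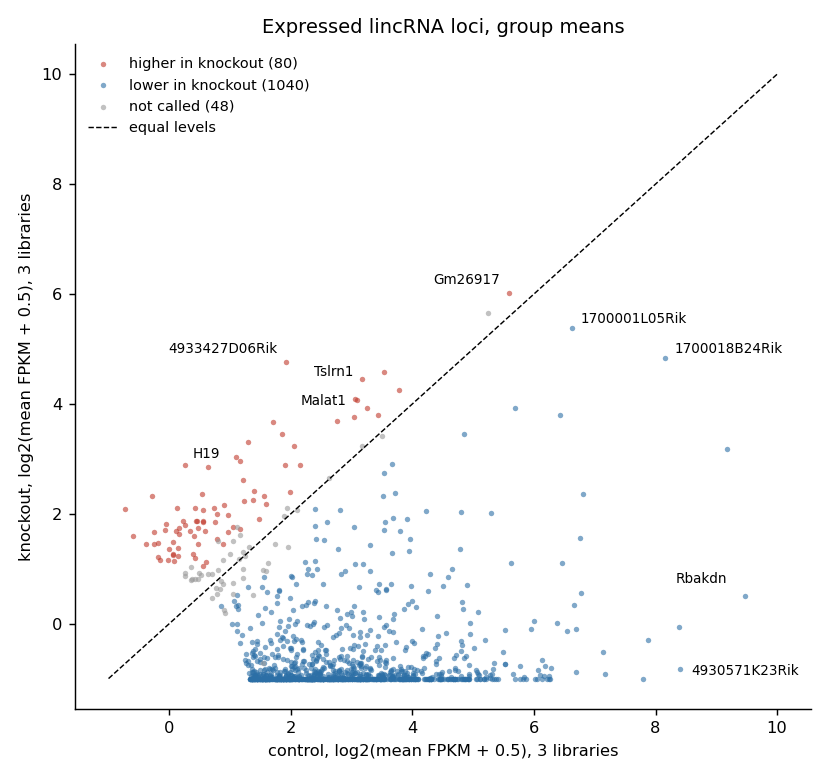
Mean level of each of the 1168 expressed lincRNA loci in the 3 control libraries (x axis) and the 3 knockout libraries (y axis), both as log2(mean FPKM + 0.5), where each point is 1 locus, coloured by its call, and the dashed line marks equal levels. Most of the 1040 loci called lower lie along the bottom edge, where the knockout level is near 0, and the 80 called higher lie above the dashed line.

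The rule itself favours loci that are high in 1 group. A locus with less than 1 FPKM in the knockout needs a control mean above 1 FPKM to enter, and 979 of the 1168 entered in this way, with at least 1 FPKM in the controls only. A further 50 reached 1 FPKM in the knockout only. The 139 loci with at least 1 FPKM in both groups entered whichever group was the higher. Of these 139, 68 fell (48.9%), 39 rose (28.1%) and 32 were not called, with a median log2 fold change of -0.55. The shares of all genes tested were 50.4% and 36.2%, so the share of these 139 that fell was near that of all genes tested. Of the 16791 genes tested, 10997 reached 1 FPKM in both groups, so this background is not matched to the 139. The loci just inside the threshold were Gm29208 and 1700049E15Rik, with control means of 2.0007 and 2.0013 FPKM and no knockout read, and Gm45571, at 1.89 and 0.110 FPKM. Just outside were 1110013H19Rik (0.711 FPKM in controls and 1.28 in the knockout), Gm36017 (1.99 and 0) and 1700112J16Rik (1.72 and 0.274).

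The loci took a larger share of the control libraries. They held 1.29 ± 0.0602% of all reads in the controls (SD, n = 3) and 0.299 ± 0.00136% in the knockout (SD, n = 3). Between 1102 and 1110 loci reached 1 FPKM in each control library, and 182 to 190 did in each knockout library. The 10 loci with most reads held 24.1% of the lincRNA reads of the controls and 49.8% of those of the knockout. The locus with most reads was 4930571K23Rik in the controls, with 4.17% of them, and 1700001L05Rik in the knockout, with 11.7%. Library totals were 14532453 to 16963019 reads in controls and 14770320 to 15204127 in the knockout. Across the lincRNA loci, which are not independent, log2 levels correlated with Pearson r of 0.92 to 0.97 within a group.

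Markers of germ cell stages and of somatic cells moved in different directions. Stra8, the gene of the cell label, was present in every library, at 11.5 to 22.6 FPKM in controls and 125 to 137 FPKM in the knockout. The 10 spermatid markers listed all fell, and took 1.25 to 1.31% of the reads per control library and 0.00088 to 0.0014% per knockout library. The 10 markers of pachytene spermatocytes, the cells of mid meiotic prophase, all fell too, from 0.890 to 0.956% of the reads to 0.0229 to 0.0291%. Of 10 spermatogonial markers 7 rose and 2 fell, with 0.0142 to 0.0243% of control reads and 0.163 to 0.199% of knockout reads. The 10 markers of Sertoli cells, the somatic cells that nurse germ cells, all rose, from 0.0213 to 0.0546% of the reads to 0.196 to 0.364%. Macrophage markers rose in 4 of 7 genes, from 0.00619 to 0.0117% of the reads to 0.0195 to 0.0664%, and of 6 Leydig cell markers 1 rose and 3 fell. No marker in these lists was at 0 reads in either group. The part of these cells in the values of the lincRNA loci was not tested, and in bulk RNA fewer cells of a type and less RNA per cell cannot be told apart.

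Counts of calls by control level were as follows. Of 60 loci with a control mean of 1 to 2 FPKM, 18 fell and 17 rose. Of 444 loci at 2 to 5 FPKM, 422 fell, and of 463 at 5 to 20 FPKM, 451 fell. Of 136 loci at 20 to 100 FPKM, 134 fell and 1 rose. All 15 loci at 100 FPKM and over fell, with a median log2 fold change of -7.57. The rule's threshold and the test's greater reach at high levels both act on this order, so it is given as a description.

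The locus with the highest control level was Rbakdn, named for its place downstream of the zinc finger gene Rbak. Its levels were 748, 633 and 757 FPKM in controls and 0.363, 2.02 and 0.380 FPKM in the knockout. The groups did not overlap, and knockout replicate 2 was the highest of its group. The log2 fold change was -9.16 ± 0.383 (SE), with a limma adjusted p of 1.5e-07. Rbakdn has 3 exons and 636 bases and lies at chr5:143164779-143165751 on the minus strand. Rbak, 6435 bases away, had 1.17 FPKM in controls and 4.29 FPKM in the knockout, a log2 fold change of 1.53.

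The largest fall by log2 fold change was that of 4930571K23Rik, which RefSeq annotates as protein-coding. It had 362, 328 and 325 FPKM in controls and 0.0215, 0.161 and 0 FPKM in the knockout. Its 3 control libraries held 25719 reads and its 3 knockout libraries 8. The log2 fold change was -9.25 ± 0.128 (SE), limma adjusted p 1.0e-09. Next in control level to Rbakdn came 1700008K24Rik, with 648, 509 and 586 FPKM in the controls. In the knockout it had 7.05, 13.5 and 4.98 FPKM, so it was 68.1 times lower in scaled reads.

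Several of the large falls ended at no knockout read at all. 1700016P04Rik had 289, 170 and 203 FPKM in controls and 0 in each knockout library. Counting 3 reads over the group as a floor, it was at least 1926-fold lower. By the same floor 1700009J07Rik (88.1, 74.1 and 66.4 FPKM in the controls) was at least 2152-fold lower and Gm31752 (92.8, 67.9 and 66.0 FPKM) at least 1326-fold lower. The control and knockout libraries of these 3 loci were apart without overlap. C2cd6b had 387, 308 and 303 FPKM in controls and 0.368, 0.619 and 0.385 FPKM in the knockout, a log2 fold change of -8.44. Gm31072 (-8.27), 4930449C09Rik (-8.03), Gm13942 (-7.67) and 1700026J12Rik (-7.57) completed the 10 largest falls. 4930449C09Rik had 182, 88.7 and 159 FPKM in the controls, and its only 4 knockout reads were in replicate 2. The 3 knockout reads of 1700026J12Rik were in the same library.

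A few of the abundant control loci kept a level in the knockout. 1700018B24Rik had 376, 215 and 265 FPKM in controls and 24.5, 29.1 and 30.2 FPKM in the knockout, a log2 fold change of -3.30 ± 0.197 (SE). It was the only locus among the 10 highest of both groups by mean FPKM. 1700001L05Rik had 107, 96.9 and 89.3 FPKM in controls and 35.99, 47.4 and 40.1 FPKM in the knockout. Its log2 fold change was -1.24 ± 0.123 (SE), limma adjusted p 2.7e-05. With FPKM rescaled to the same sum it was -0.06 with adjusted p 0.57, and under quantile normalization 0.26 with adjusted p 0.059, so its fall rests on the scaling.

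**Figure D2:**
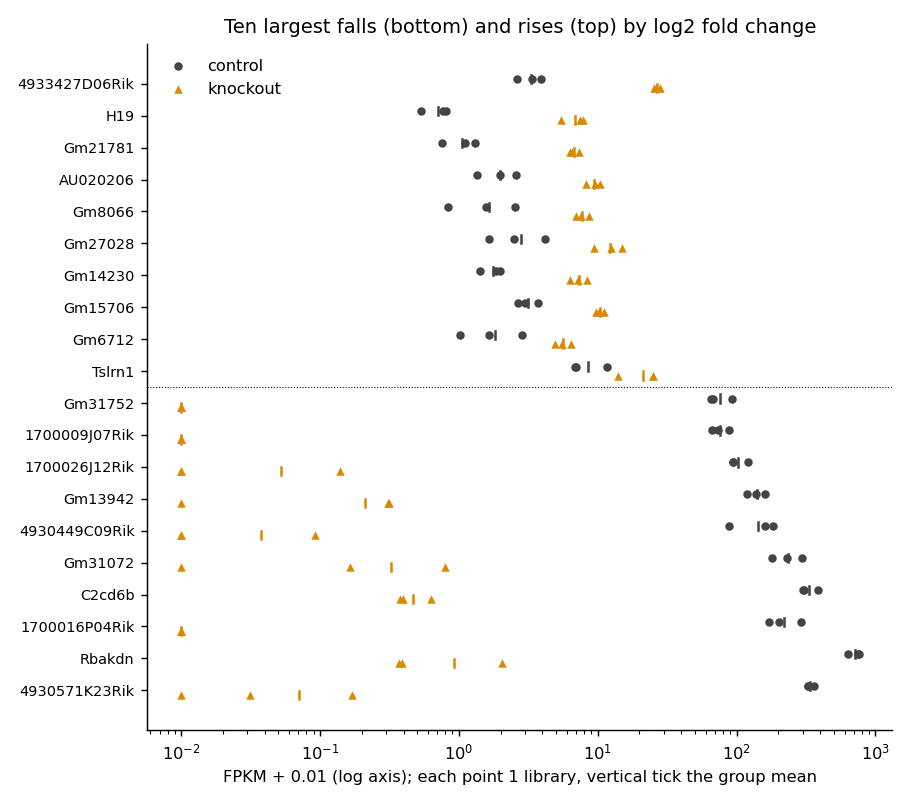
FPKM in each library (points; 3 controls, 3 knockout libraries) for the 10 largest rises (top) and 10 largest falls (bottom) among lincRNA loci with at least 5 FPKM in the higher group, on a log axis after adding 0.01, with the group mean as a vertical tick. The falls run from levels of 66.0 FPKM and over to near or at 0, and the rises start from levels between 0.526 and 11.7 FPKM.

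Among loci with at least 5 FPKM in the higher group, the largest rise by log2 fold change was that of 4933427D06Rik, a locus with 5 exons at chr6:88950683-89110031 on the plus strand. It had 2.63, 3.34 and 3.87 FPKM in controls and 26.4, 28.0 and 25.6 FPKM in the knockout. The groups did not overlap, and the log2 fold change was 2.86 ± 0.136 (SE), limma adjusted p 3.4e-07. Tslrn1, an X-linked locus, had 6.91, 6.95 and 11.7 FPKM in controls and 25.001, 25.03 and 13.97 FPKM in the knockout. Control replicate 3 and knockout replicate 3 lay closest, and its log2 fold change was 1.27 ± 0.275 (SE), limma adjusted p 0.0027. Gm21781 went from a mean of 1.05 to 6.72 FPKM, AU020206 from 1.96 to 9.36, Gm8066 from 1.63 to 7.73 and Gm27028 from 2.77 to 12.3. Their log2 fold changes were 2.24, 2.03, 2.02 and 2.02, and no library of 1 group reached into the other. The 10 rises shown are the largest by log2 fold change among called loci whose higher group had a mean of 5 FPKM or more. The others of the 10 were H19, Gm14230, Gm15706 and Gm6712, at log2 fold changes of 2.62, 1.80, 1.60 and 1.47.

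Characterised noncoding RNAs were taken from lists of 84 names by role. Of these, 35 were lincRNA genes in the table and 13 were expressed loci. Of the 13, 9 rose, 1 fell and 3 were not called, where 36.2% of all genes tested rose and 50.4% fell. Their median log2 fold change was 0.59, beside -0.41 over all genes tested and -3.24 over all 1168 loci. The 3 that were not called turned to called higher with FPKM rescaled, with reads rescaled and under quantile normalization. The fold changes below are on the deposited scaling.

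H19, a maternally expressed imprinted RNA that restrains growth and hosts a microRNA, had the largest rise in these lists. It had 0.526, 0.804 and 0.759 FPKM in controls and 5.39, 7.47 and 7.87 FPKM in the knockout. All knockout libraries were above all controls, with a log2 fold change of 2.62 ± 0.182 (SE) and a limma adjusted p of 3.4e-06. Mirg, a microRNA host of the imprinted Dlk1 to Dio3 region, was the only one to fall, from 1.95, 1.84 and 2.70 FPKM to 0.0190, 0.0203 and 0 FPKM. Its exons cover 7292 bases, and its span from start to end overlaps 14 other gene entries on the same strand, so its reads are uncertain. Its log2 fold change was -2.36 ± 0.192 (SE), limma adjusted p 8.4e-06, while its nearest coding gene tested, Dlk1, had 0.715 and 5.93 FPKM.

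Malat1, an abundant RNA of nuclear speckles, had 7.82, 8.63 and 7.66 FPKM in controls and 17.2, 16.0 and 15.7 FPKM in the knockout. Its rise was 0.98 ± 0.0961 (SE) in log2, limma adjusted p 2.6e-05. 2900097C17Rik, an older symbol of Norad, an RNA that binds Pumilio proteins, had 11.1, 13.5 and 15.0 FPKM and then 20.95, 17.03 and 17.6 FPKM. The groups did not overlap, and the log2 fold change was 0.48 ± 0.137 (SE), limma adjusted p 0.011. 1700020I14Rik, which RefSeq lists as Oip5os1 (Cyrano, known for the turnover of the microRNA miR-7), rose from 9.12, 8.43 and 9.48 FPKM to 15.1, 15.2 and 13.97 FPKM, a log2 fold change of 0.68.

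Hosts of small nucleolar RNAs, which guide the modification of ribosomal RNA, rose in 4 of 6 cases, where 36.2% of all genes tested and 6.85% of the lincRNA loci rose. They overlap the table's own entries for the small RNAs inside them, so some reads may be split. Snhg6 rose from 7.78 ± 1.08 to 16.6 ± 2.83 FPKM (SD, n = 3 each) and Snhg20 from 1.16 ± 0.0867 to 3.78 ± 0.542 FPKM. Snhg18 rose from 0.692 ± 0.155 to 2.96 ± 1.10 FPKM, with knockout replicate 3 the lowest of its group at 1.72 FPKM. Snhg12 had a log2 fold change of 0.59, which had adjusted p 0.066 without knockout replicate 3. Snhg10 and Epb41l4aos were not called, at log2 fold changes of 0.00 and 0.04 with 95% intervals of -0.45 to 0.45 and -0.43 to 0.50. Of the microRNA hosts, Mir17hg, the precursor of the miR-17 to miR-92 cluster, had 3.66, 3.49 and 3.26 FPKM in controls and 4.78, 5.16 and 4.34 in the knockout. Its log2 fold change of 0.40 had adjusted p 0.012, and 0.060 without knockout replicate 2. Mir9-3hg was not called, at 3.56, 2.96 and 3.05 FPKM and then 3.33, 3.26 and 3.57 FPKM, with a log2 fold change of 0.08 and a 95% interval of -0.21 to 0.37.

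The knockout libraries had their own order of abundance. After Gm26917 and Gm10076 came 1700001L05Rik, 1700018B24Rik, 4933427D06Rik and Scml1. Gm26917 had 48.1, 45.8 and 48.5 FPKM in controls and 57.9, 58.8 and 77.2 FPKM in the knockout, a log2 fold change of 0.43 with adjusted p 0.011. Gm10076 spread widely within both groups, with 31.4, 51.7 and 28.5 FPKM and then 89.9, 41.4 and 18.6 FPKM. It was not called, and its 95% interval of -0.999 to 1.39 in log2 is wide. The other loci nearest to no change at 5 FPKM and over were Epb41l4aos, C920006O11Rik (5.68 and 5.77 FPKM) and D930016D06Rik (10.8 and 10.2 FPKM). D930016D06Rik turned to called higher under 3 of the other scalings, at log2 fold changes of 0.60 to 1.08, and so did C920006O11Rik, at 0.72 to 1.21. Gm10076 turned to called higher with FPKM rescaled, at 1.38.

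The loci were spread over all chromosomes. Chromosome 5 held 118, chromosome 10 held 102 and chromosome 13 held 88, while chromosome 11 held 34 and chromosome 19 held 7. Per 100 genes tested, chromosome 13 held 13.5, chromosome 10 held 12.5 and chromosome 19 held 1.41. On every autosome between 82.4% and 95.8% of the loci fell, where 46.2% to 61.3% of all genes tested on an autosome did. The windows of 5000000 bases with most loci were chr10:65000001-70000000, with 14, and chr5:10000001-15000000, with 13, and every one of these fell. Of 413 windows with a locus, 6 held at least 10, and the median window held 2.

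The X chromosome carried 18 loci, and the autosomes 1147. Of the 18, 14 fell and 4 rose, with a median log2 fold change of -3.17 where the autosomal loci had -3.24. All X-linked genes tested, 733 in number, went the other way, with 59.9% higher, 31.4% lower and a median of 1.11. Of the 18 loci, 10 had no knockout read. These 10 passed the rule through the controls alone and could only fall, so the contrast with all X-linked genes tested is a description. Gm15104 had 65.4, 67.3 and 65.9 FPKM in controls and 0.110, 0 and 0.0574 FPKM in the knockout, a log2 fold change of -6.91 ± 0.114 (SE). 1700003E24Rik went from 47.5, 52.2 and 61.6 FPKM to 0, 0.257 and 0 FPKM. Gm14773 and BC061195, at means of 41.7 and 27.6 FPKM in the controls, had no knockout read and were at least 390-fold and at least 330-fold lower. RefSeq annotates Gm15104 as protein-coding, and 1700003E24Rik, Gm14773 and BC061195 as noncoding RNA pseudogenes. BC061195 and 1700003E24Rik have the same length of 577 bases and lie in the same part of the chromosome, so their values are uncertain if reads map to both.

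The 4 X-linked loci that rose were Tslrn1, Scml1, Eif2c5 and Gm15205, of which the last 2 were named after their values were seen. Scml1 had 13.1, 10.04 and 10.1 FPKM in controls and 22.1, 25.7 and 22.6 FPKM in the knockout, a log2 fold change of 1.05 ± 0.128 (SE). RefSeq annotates Scml1, which encodes a Polycomb-related protein of the germ line, as protein-coding. Eif2c5 went from a mean of 0.580 to 2.71 FPKM and Gm15205 from 6.25 to 12.3 FPKM. All 3 Y-linked loci fell, and none had a knockout read.

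**Figure D3:**
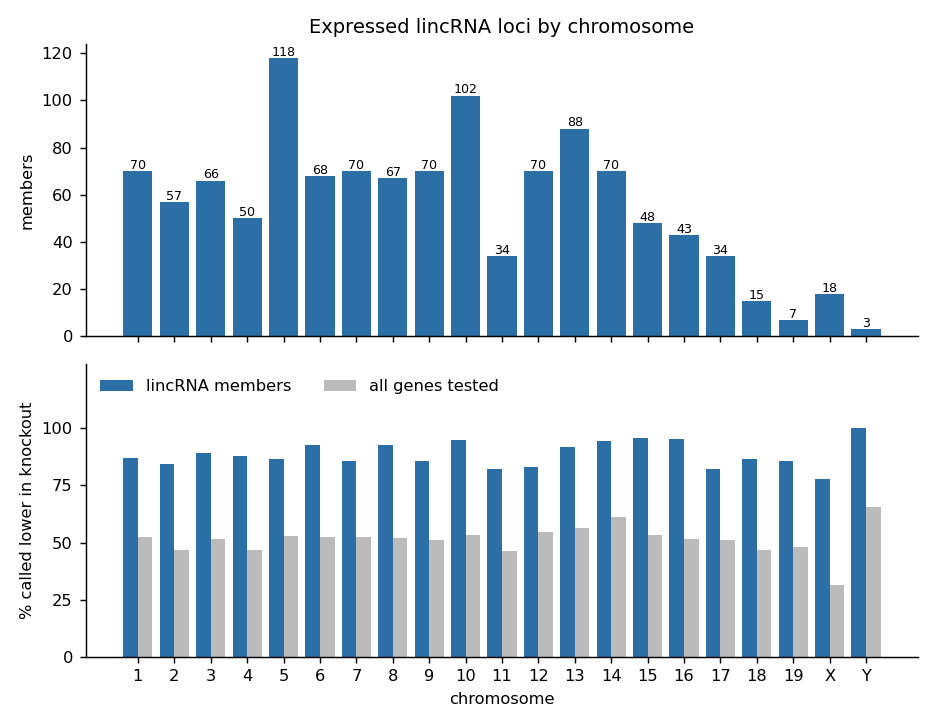
Number of expressed lincRNA loci on each chromosome (upper bars) and the percentage of them called lower in the knockout beside that of all genes tested on the same chromosome (lower bars). Chromosome 5 has the most loci, 118, and on every chromosome a larger percentage of loci than of all genes was called lower, with 77.8% against 31.4% on the X chromosome. Most loci passed the rule through the controls only, so these percentages are a description.

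By length, most loci of each class fell. Of 664 loci under 1 kb, 611 fell (92.0%) and 29 rose, with a median log2 fold change of -3.32. Of 303 loci of 1 to 2 kb, 274 fell and 17 rose, with a median of -3.18. Of 154 loci of 2 to 4 kb, 124 fell and 22 rose, with a median of -2.82, and of 47 loci of 4 kb and over, 31 fell (66.0%) and 12 rose, with a median of -2.63. Protein-coding genes of the same lengths had medians of -2.28, -0.84, -0.03 and 0.20. Of all genes tested, 64.4% fell under 1 kb, 64.3% at 1 to 2 kb, 47.8% at 2 to 4 kb and 39.5% at 4 kb and over, so the share that fell was smaller in the long classes there too. The lincRNA median was lower in each length class, by the smallest amount under 1 kb.

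The longest locus, Gm37494 with 16543 bases, rose from 0.777, 0.9755 and 0.810 FPKM to 2.71, 3.54 and 3.14 FPKM. RefSeq annotates it as protein-coding. The next in length fell. AC125141.3 went from 10.1 ± 0.779 to 1.03 ± 0.460 FPKM and Gm21269 from 16.4 ± 0.764 to 0.0580 ± 0.0135 FPKM (SD, n = 3 each). The shortest, Gm45027 with 78 bases, had 102, 122 and 99.9 FPKM in controls and 2.96, 2.53 and 1.86 FPKM in the knockout. Such levels rest on few reads at this length, 301 in controls and 12 in the knockout. Gm31450 and Gm31294, of 132 and 138 bases, had 11 and 36 control reads, and 1 and 0 knockout reads. In Gm31294 control replicate 3 stood at 1.18 FPKM and the other controls at 10.8 and 10.5 FPKM.

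By exon number, 16 of 58 loci with 1 exon rose and 36 fell, with a median log2 fold change of -1.68. Of 397 loci with 2 exons, 346 fell, of 286 with 3 exons, 271 fell, and of 311 with 4 or 5 exons, 280 fell. Of 116 with 6 exons or more, 107 fell and 4 rose, with a median of -3.60. Of all genes tested, 36.2% rose and 50.4% fell, and these were not divided by exon number. A mean of 1 FPKM in the knockout was reached by 29 of the 58 loci with 1 exon and by 11 of the 116. The rule acts on these classes unequally, so their order is given as a description. The exon number is the largest of the transcripts in GENCODE M21.

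**Figure D4:**
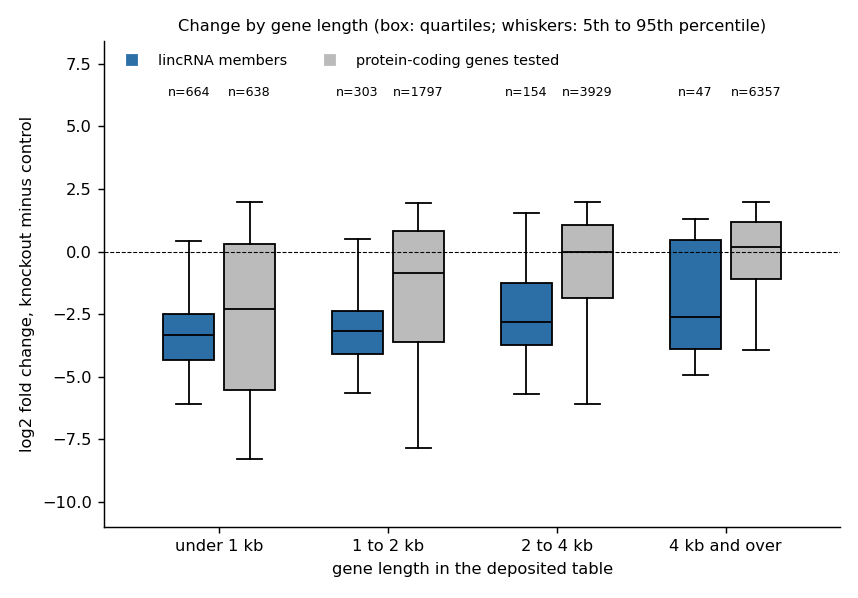
Log2 fold change (knockout minus control) of expressed lincRNA loci and of protein-coding genes tested, by gene length, where boxes are quartiles, lines medians, whiskers the 5th to 95th percentiles, and n the number of genes. The lincRNA median runs from -3.32 under 1 kb to -2.63 at 4 kb and over, and the coding median from -2.28 to 0.20.

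The change of a locus was set against that of its nearest protein-coding gene tested, library by library, which removes the scaling of the library apart from the 0.5 added to each level. It differed from the neighbour's for 1016 of the 1168 loci by limma on the difference at an adjusted p of 0.05, where 82.5% of all 16786 genes with a neighbour differed. In 831 cases the locus was the lower, where 44.2% of all genes were lower than their neighbour, and in 185 it was the higher, where 38.3% of all genes were. The median log2 fold change of the neighbours was -0.13. For 418 loci the locus fell while the neighbour rose, and for 27 it rose while the neighbour fell. Of 12716 protein-coding genes, 2094 fell while their own neighbour rose and 2218 the reverse. The FPKM of a locus enters both the rule and this difference, and 979 of the 1168 loci reached 1 FPKM in the controls only. The split of the loci into lower and higher than the neighbour is thus partly set by the rule, and is given as a description. Where both the locus and its neighbour were called, 537 of 982 pairs moved in the same direction (54.7%). Of protein-coding genes, 55.1% did so with their own nearest coding gene. The median gap to the neighbour was 53395 bases for the loci and 4551 bases for the protein-coding genes, so these shares are not matched for distance.

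The share of pairs with the same direction differed by the distance between the genes. The direction was the same in 67.9% of pairs that overlap, in 68.8% of pairs up to 5 kb apart, in 52.7% at 5 to 50 kb, in 44.8% at 50 to 200 kb and in 54.0% beyond that. Pearson r of the 2 fold changes was 0.39 over the 221 pairs up to 5 kb apart and 0.12 over all 1168, as a description over pairs that share libraries. Overlapping pairs can share reads, since the strand of counting is not given in the sources used here.

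Single pairs show how far neighbours could part. Gm26917 had its log2 fold change of 0.43 while Pgk2, a glycolytic kinase of the testis 360670 bases away, went from 777 to 0.130 FPKM. The difference was 10.7 ± 0.209 (SE) in log2, limma adjusted p 6.1e-09. In the other direction C2cd6b fell beside Stradb, 1408 bases away, which rose from 4.99 to 9.82 FPKM, a difference of -9.35 ± 0.149 (SE). Gm5922 went from 72.4 to 0.0823 FPKM while Rpsa, a ribosomal protein gene 1094 bases away, went from 80.1 to 177 FPKM. 1700065J18Rik went from 16.5 FPKM to no read beside Sertad4, 1748 bases away, at 2.78 and 15.2 FPKM. 4930467D21Rik overlaps Gk2, a testis glycerol kinase on the opposite strand, and went from 2.90 to 0.925 FPKM while Gk2 went from 579 to 0.541 FPKM. Reads of Gk2 may be counted in it.

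Loci that start within 1000 bases of a coding gene on the other strand form divergent pairs, and 108 of the 1168 were in one. Both fell in 57 pairs and both rose in 8. Of all genes tested, 50.4% fell and 36.2% rose, and divergent pairs of coding genes were not counted as a background. The locus fell while its partner rose in 19 pairs, and it rose while the partner fell in 1, 4632404H12Rik with Ube2q1, named after its values were seen. The median log2 fold change was -1.98 for these loci and -0.72 for the partners, with Pearson r of 0.46 over the 108 pairs. Gm14230 went from 1.75 to 7.31 FPKM and Tgif2, a transcriptional repressor gene 115 bases away, from 0.627 to 3.60 FPKM. Their difference was -0.06 ± 0.263 (SE), limma adjusted p 0.83.

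**Figure D5:**
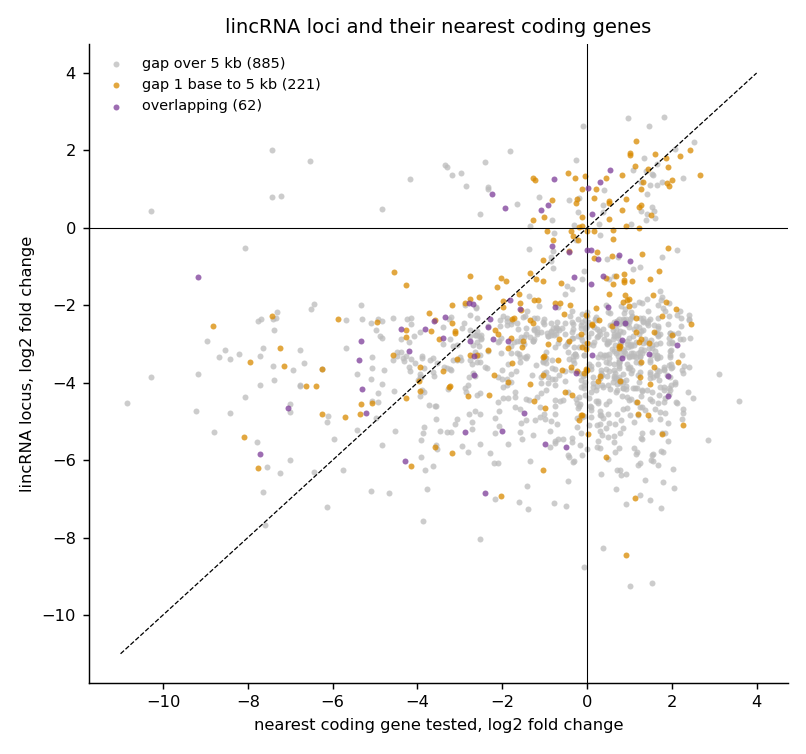
Log2 fold change (knockout minus control) of each of the 1168 expressed lincRNA loci (y axis) against that of its nearest protein-coding gene tested (x axis), coloured by the gap between the genes, where the dashed line marks equal changes. Most points lie below the dashed line, 831 of them past the test of the difference, whether the neighbour rose or fell. The rule favours such points, since 979 of the loci reached 1 FPKM in the controls only.

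The annotation of some loci limits their values. Of the 1168, 362 overlap another gene of the table, 127 of them on the same strand and 299 on the opposite strand. The 806 that overlap none fell in 733 cases and rose in 45, with a median of -3.32. RefSeq, matched by name or identifier, calls 753 of the 1168 lncRNA, of which 703 fell and 34 rose. It calls 21 of the loci protein-coding, of which 11 fell and 8 rose, and these include 4930571K23Rik, C2cd6b, Gm13942, Gm15104, Gm6712, Gm37494, Scml1 and D930016D06Rik. RefSeq also calls 6 of the loci transcribed pseudogenes, among them 1700018B24Rik, of which 5 fell and 1 rose. All 3 noncoding RNA pseudogenes and the 1 locus of another class fell. Of 2 pseudogenes, 1 fell and 1, Gm10076, was not called. The 382 loci with no RefSeq match fell in 316 cases and rose in 37. In GENCODE M21, 1156 of the 1168 are still lincRNA genes.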

How the data were processed

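Total RNA of 3 control and 3 knockout libraries was sequenced. The submitters' processing notes name the aligner HISAT2 2.0.5 and the build mm10. The counting tool, its annotation, its use of strand and its handling of reads with several positions were not given in the sources used here. The authors deposited FPKM per gene with its length, position and biotype. Multiplied by length, the FPKM were whole multiples of 1 read within 0.01 read for 100% of nonzero values, so reads were recovered. The divisor behind the FPKM was 0.691 to 0.774 of the recovered total for control libraries and 1.37 to 1.42 of it for knockout libraries, so the deposited scale sets knockout values lower than shares of reads would.

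Samples were grouped by their titles. All genes of mean 1 FPKM or more were fitted together by limma 3.58.1 (R 4.3.3) as log2(FPKM + 0.5), two-sided, with a mean-variance trend and Benjamini-Hochberg adjustment, and differences from the nearest coding gene likewise. Fold changes on this scale understate the change of low genes, and standard errors are the moderated ones. Read ratios use the authors' divisors. Floors cover counting error only, as no molecular identifiers are given. The model was tested on simulated data.

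Loci were named by a rule: list members, the 10 largest rises and falls at 5 FPKM and over without overlap, the 6 highest in each group, the 4 nearest to no change, 4 X-linked loci by p, the 3 longest and 3 shortest, 3 on each side of the threshold, and the 6 most unlike their neighbour. The members, the lists and the rule were chosen with earlier results of these data known. Alternatives were other pseudocounts, filters and scalings, no trend, a replicate block, limma voom on recovered reads and leaving out each library. Tables were made with Python 3.11.15 and pandas 2.3.3. Promoter windows and synonyms are from RefSeq.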

Additional observations from a re-analysis of the deposited data

How the results depend on the processing

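The counts of expressed lincRNA loci kept their direction under every alternative to the deposited values that was run. The number higher and lower was 17 and 338 among the 359 loci with a mean of at least 5 FPKM, where fewer genes are tested, and 127 and 949 under quantile normalization, 118 and 996 with FPKM rescaled to the same sum and 111 and 1010 with reads rescaled, an alternative chosen after seeing the data. Leaving out 1 library gave 69 to 77 higher, 1035 to 1039 lower, 981 to 1010 that differed from their nearest coding gene, and a median log2 fold change of -3.30 to -3.10. That median was -5.07 with a pseudocount of 0.1, -2.43 with 1, -4.82 at 5 FPKM and over, -3.89 with FPKM rescaled, -2.17 under quantile normalization, -3.22 with median-of-ratios factors, -6.48 with limma voom on recovered reads and -2.76 with reads rescaled. With the replicate block 81 loci were higher, 1042 lower and 1006 differed from their neighbour. Libraries with the same number did not deviate together, with correlations of -0.12, -0.05 and -0.04. These values give no sign that the numbers pair the libraries, but with few libraries per group they cannot exclude it.

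Single loci changed direction mainly near 0. D930016D06Rik, not called as deposited, had 1.08 with FPKM rescaled, 0.60 under quantile normalization and 0.79 with reads rescaled. 1700001L05Rik, lower as deposited, had 0.26 under quantile normalization, and Snhg10 had -0.0010 with a pseudocount of 1. Over the fits that left out 1 library each, loci that were not called and changed sign ran from -0.22 to 0.13 (Snhg10), -0.14 to 0.27 (Epb41l4aos), -0.36 to 0.76 (Gm10076), -0.11 to 0.29 (C920006O11Rik) and -0.17 to 0.026 (D930016D06Rik). The cause was not tested. With 482 loci at 0 knockout reads, depth limits the size of their falls to lower bounds.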

Other observations

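Among the characterised lincRNA genes, 22 were below a mean of 1 FPKM and were not tested with the expressed loci. Neat1, the RNA of paraspeckles, had 1.03 FPKM in controls and 0.471 FPKM in the knockout. Xist, which silences an X chromosome in female cells, had 0.122 and 0.533 FPKM, and Ftx of the same region 0.362 and 0.565 FPKM. Hotair of the HoxC cluster had 0.700 FPKM in controls and no read in the knockout, and Mir142hg, a microRNA host of blood cells, 1.11 FPKM and no read. Pvt1, a neighbour of Myc, had 0.771 and 0.0575 FPKM, and Meg3, an imprinted gene of the region that holds Mirg, 0.145 and 0.179 FPKM. These are group means over 3 libraries each, given as values with no test.

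Other genes of the list of small nucleolar RNA hosts carry another biotype in the table and are not among the lincRNA loci. Of the 10 that were tested, limma called 7 higher and 2 lower on the deposited scaling, where 36.2% and 50.4% of all genes tested were. The 7 were Snhg11 (log2 fold change 1.89), Snhg1 (1.39), Snhg15 (1.07), Dancr (1.06), Snhg17 (0.88), 1810032O08Rik, also known as Snhg16 (0.53), and Gas5 (0.30). Snhg1 went from 3.14 to 8.9995 FPKM and Snhg15 from 0.885 to 2.40 FPKM. Snhg8 went from 11.2 to 6.93 FPKM (-0.64) and Snhg9 from 2.85 to 0.618 FPKM (-1.31), the 2 called lower, and Snhg5 was not called (0.25).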
